A study of Homo sapiens with 8 samples.

Results

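The neuronal RNA-binding and splicing proteins were followed here as a set of 10 genes: ELAVL2, ELAVL3, ELAVL4, NOVA1, RBFOX1, RBFOX2, CELF2, CELF4, PTBP1 and PTBP2. They were taken by symbol among the 18377 genes that the annotation of the array ties to a row of their own. Each of the 10 had exactly 1 such row, so all were measured and none had to be chosen among several. The cells were SHSY5Y, a human neuroblastoma line of neural crest origin, in the form of a pair of stable lines grown on laminin and profiled on 8 Affymetrix Human Gene 1.0 ST arrays, 2 for each of 4 groups. V71 DF and PLKO DF cells had been differentiated, first by 5 days of retinoic acid at 10 µM and afterwards, without serum, by 3 days of BDNF at 2 nM. V71 NDF and PLKO NDF cells were kept in growth medium with serum. All 4 groups thus share the parental line and the laminin, and each line stands for a construct only through the cells that carry it. The treatment label is control for the V71 samples and shRNA for the PLKO samples, whereas in the methods pLKO.1-Puro is the control vector. The target of the shRNA is not analysed here, and neither line is assigned to a construct. The lines keep the names V71 and PLKO from their titles, and every difference between them is V71 minus PLKO.

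These proteins bind RNA in the nucleus, where they select exons, or in the cytoplasm, where they set how long an mRNA lasts and how it is translated. ELAVL2, ELAVL3 and ELAVL4 (HuB, HuC and HuD) are the neuronal Hu proteins, which bind U-rich and AU-rich elements and stabilize mRNAs of growing neurons. NOVA1, RBFOX1, RBFOX2, CELF2 and CELF4 choose alternative exons in the nervous system, and the CELF proteins also act on stability and translation. PTBP1 represses neuronal exons in dividing and non-neuronal cells, and its paralog PTBP2 takes its place as neurons form. PTBP1 itself makes PTBP2 transcripts skip an exon and so be degraded, which is why a fall of PTBP1 and a rise of PTBP2 are classically described together.

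The values are on a log2 scale, so that a difference of 1 is a doubling, and they cannot be set against each other between genes, whose probes differ. A gene was called when its adjusted p in limma was under 0.05 and its fold at least 1.5. Total values were alike on the 8 arrays, which the normalization in RMA brings about by design. The lower quartile of all rows was between 3.0 and 3.1 and the median between 4.60 and 4.68. Arrays of 1 group had a Spearman correlation of at least 0.9947, above the highest value between groups, 0.9931. Markers of noradrenergic neuroblasts, the cell type of the SHSY5Y label, averaged 7.88 to 7.90 in V71 DF, 7.96 to 8.07 in V71 NDF, 7.68 to 7.73 in PLKO DF and 7.58 to 7.68 in PLKO NDF cells, over 10 genes. Of these 10, DF minus NDF called 1 higher and 3 lower in V71 cells and 1 higher in PLKO cells, and V71 minus PLKO called 1 higher and 1 lower in DF and 3 higher in NDF. The shares of all genes called in either direction were 7.53%, 7.04%, 3.06% and 2.15% in the same order. The samples are bulk RNA, in which fewer cells of a type and less RNA per cell cannot be told apart.

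Differentiation moved 5 of the 10 genes in V71 cells and 3 in PLKO cells. PTBP1 fell and RBFOX2 rose in both lines. ELAVL2, ELAVL4 and CELF4 rose in V71 cells, and CELF2 rose in PLKO cells. Between the lines, ELAVL2 was higher and CELF2 lower in V71 than in PLKO cells after differentiation, and ELAVL4 was lower in V71 than in PLKO cells in growth medium. ELAVL3, NOVA1, RBFOX1 and PTBP2 were called in none of the comparisons.

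Against these counts stand the shares of all genes called in the same comparisons. DF minus NDF called 7.53% of the 18377 genes in V71 cells, 3.98% higher and 3.55% lower, and 5 of the 10 here, 4 higher and 1 lower. In PLKO cells it called 7.04%, 2.88% higher and 4.16% lower, and 3 of the 10 here, 2 higher and 1 lower. V71 minus PLKO called 3.06% of all genes in DF, 1.81% higher and 1.26% lower, and 2 of the 10 here, 1 in each direction. In NDF it called 2.15% of all genes, 0.615% higher and 1.54% lower, and 1 of the 10 here, which was lower. The median of the 10 differences upon differentiation was 0.27 in V71 and 0.28 in PLKO cells, whereas the median of all genes was between -0.00474 and 0.0129 in the 5 comparisons. An unadjusted p under 0.05 (limma) was common among the 18377 genes. Between the lines 3576 had it in DF and 2765 in NDF, and upon differentiation 5346 in V71 and 5152 in PLKO cells.

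**Figure D1:**
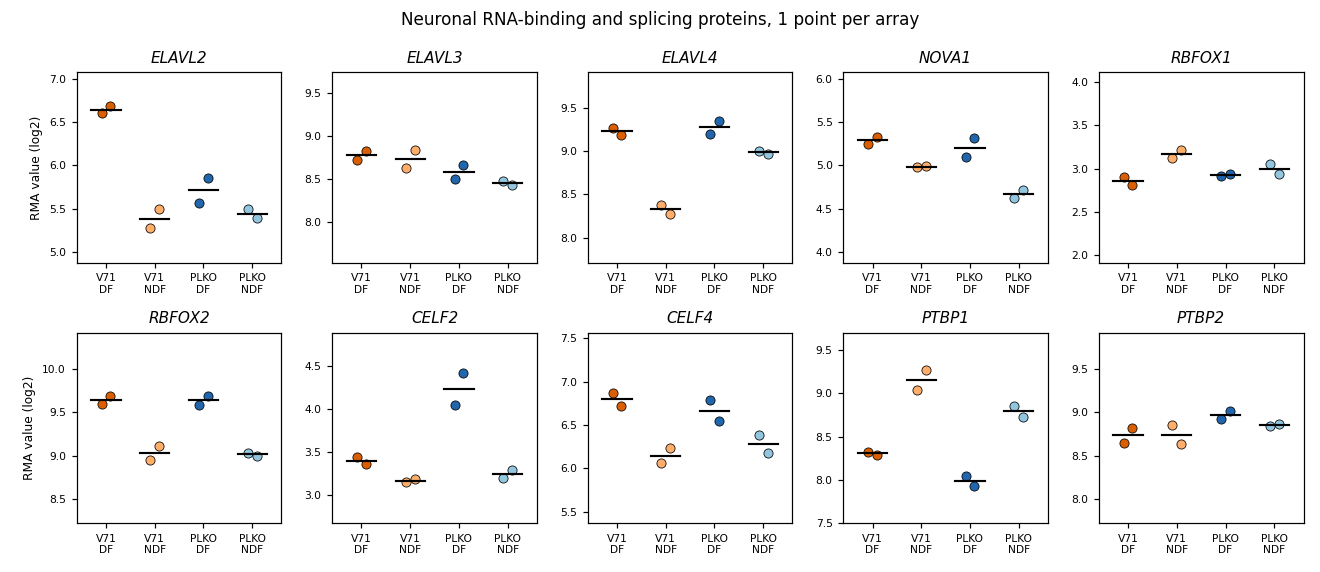
RMA values on the log2 scale (vertical axes, of equal length in log2 units) of the 10 genes on the 8 arrays, by line and condition. Points are single arrays and bars the means of 2, with V71 DF, V71 NDF, PLKO DF and PLKO NDF set left to right, and ELAVL2 stands at 6.60 and 6.68 on the V71 DF arrays and at 5.85 or less on the others, whereas PTBP1 is lower on every DF array than on every NDF array.

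The neuronal Hu genes differed in how they moved. ELAVL2 was at 6.60 and 6.68 on the V71 DF arrays, 5.27 and 5.49 in V71 NDF, 5.57 and 5.85 in PLKO DF and 5.49 and 5.39 in PLKO NDF. Both V71 DF arrays thus lay above all the others, which stood between 5.27 and 5.85. Upon differentiation ELAVL2 rose by 1.26 ± 0.12 (SE) in V71 cells, or 2.4-fold (limma, adjusted p = 9.73e-05), whereas the change in PLKO cells was 0.26 ± 0.12 (adjusted p = 0.205). V71 minus PLKO was accordingly 0.93 in DF, or 1.91-fold (limma, adjusted p = 0.00183), and -0.07 in NDF (adjusted p = 0.896). The 2 comparisons share the V71 DF arrays and are not separate evidence.

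The test of the difference between the lines in their response gave 1.0 for ELAVL2 (95% interval 0.62 to 1.37, limma adjusted p = 0.0241), and it was the only one of the 10 genes called there, against 1.39% of all genes, 1.09% in its direction. This call was lost, with an adjusted p of up to 0.136, on leaving out V71 DF replicate 1 or 2, V71 NDF replicate 2, PLKO DF replicate 1 or PLKO NDF replicate 2 or 3, and without moderation of the variance (adjusted p = 0.319). Without moderation V71 minus PLKO in DF also missed the threshold (adjusted p = 0.0943).

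The promoter of ELAVL2 is shown because the differentiated cells had been given retinoic acid, whose receptors bind direct repeats of AGGTCA. Of the 6 start sites with a window of 250 bases before and 50 after in RefSeq (GRCh38.p14), the one at chr9:23823083-23823382, minus strand, held 2 matches, in capitals, at bases 160 and 220 of the window. The other 5 held none. Only single copies of AGGTCA were searched for, not direct repeats, and the 2 matches stand far apart in the window.
ELAVL2: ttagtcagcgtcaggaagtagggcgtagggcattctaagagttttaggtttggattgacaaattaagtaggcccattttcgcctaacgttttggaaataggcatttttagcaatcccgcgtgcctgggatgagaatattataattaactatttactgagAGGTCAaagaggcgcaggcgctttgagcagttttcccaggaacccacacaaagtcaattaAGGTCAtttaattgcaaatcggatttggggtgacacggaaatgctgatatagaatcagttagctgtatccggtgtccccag
The letters AGGTCA, on either strand, were found in 6 of the 35 windows that 8 of the 10 genes have, or 17.1%, and in 13.8% of all 35116 windows of that length. The cyclic AMP response element TGACGTCA, which CREB binds downstream of BDNF, was in none of the 35 windows and in 1.8% of all. Such matches describe the sequence and do not show that a factor binds there.

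ELAVL4, the Hu protein best known for stabilizing GAP43 mRNA, was at 9.27 and 9.18 in V71 DF, 8.38 and 8.27 in V71 NDF, 9.20 and 9.35 in PLKO DF and 9.00 and 8.97 in PLKO NDF cells. The V71 NDF arrays lay below all others, which stood at 8.97 or higher, while the DF arrays of both lines overlapped. It rose by 0.90 ± 0.09 upon differentiation in V71 cells, or 1.87-fold (limma, adjusted p = 0.000159), and the change in PLKO cells was 0.29 ± 0.09 (adjusted p = 0.0712). In NDF it was lower in V71 than in PLKO cells by 0.66 (V71 minus PLKO -0.66, adjusted p = 0.00392), while in DF the difference was -0.05 (adjusted p = 0.861). The NDF call was lost without PLKO NDF replicate 2, at an adjusted p of 0.0525, and without moderation, at 0.0827. The difference in response between the lines was 0.61 (95% interval 0.33 to 0.90, adjusted p = 0.072).

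ELAVL3, which marks post-mitotic neurons, was at 8.72 and 8.83 in V71 DF, 8.63 and 8.84 in V71 NDF, 8.50 and 8.66 in PLKO DF and 8.48 and 8.43 in PLKO NDF cells. The DF and NDF arrays of V71 overlapped, with a difference of 0.04 (95% interval -0.19 to 0.27). The difference in PLKO cells was 0.13 (-0.10 to 0.36), and that between the lines in NDF was 0.28 (adjusted p = 0.261). ELAVL1 (HuR), the ubiquitous member of the family, changed by -0.16 in V71 (adjusted p = 0.504) and -0.08 in PLKO cells (adjusted p = 0.773).

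RBFOX2, a regulator of exons used in neurons, muscle and epithelium, was at 9.60 and 9.69 in V71 DF, 8.95 and 9.11 in V71 NDF, 9.59 and 9.69 in PLKO DF and 9.03 and 9.00 in PLKO NDF cells. The 4 DF arrays lay above the 4 NDF arrays, and the lines overlapped in each condition. It rose by 0.61 ± 0.09 in V71 cells, or 1.53-fold (limma, adjusted p = 0.00179), and by 0.63 ± 0.09 in PLKO cells, or 1.54-fold (adjusted p = 0.00165). The difference between these responses was -0.01, with a 95% interval of -0.30 to 0.28. Both folds lie close to the threshold of 1.5. Without V71 NDF replicate 2 the V71 change was 0.53, without V71 DF replicate 2 it was 0.57, and without PLKO DF replicate 2 the PLKO change was 0.57, each short of that fold.

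RBFOX1, known as a neuron and muscle form, was at 2.91 and 2.81 in V71 DF, 3.12 and 3.22 in V71 NDF, 2.92 and 2.94 in PLKO DF and 3.06 and 2.94 in PLKO NDF cells. These values lie about the lower quartile of all rows, where background can carry much of the signal. The change in V71 cells was -0.31 (adjusted p = 0.0495), short of the fold threshold. RBFOX3, the antigen of the neuronal marker NeuN, was between 4.21 and 4.49 on all arrays, and the changes were -0.03 in V71 and 0.12 in PLKO cells, neither called.

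NOVA1, which directs exon choice in transcripts of synaptic proteins, was at 5.25 and 5.33 in V71 DF, 4.98 and 4.99 in V71 NDF, 5.10 and 5.31 in PLKO DF and 4.62 and 4.72 in PLKO NDF cells. In either line the DF arrays lay above the NDF arrays. In PLKO cells the change of 0.53 ± 0.10 had an adjusted p of 0.00558 (limma) but a fold of 1.45, under the threshold, and in V71 cells it was 0.30 ± 0.10 (adjusted p = 0.074). NOVA2, the paralog found mainly in cortex, changed by -0.05 in V71 (adjusted p = 0.895) and -0.09 in PLKO cells (adjusted p = 0.77).

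Of the CELF genes, CELF2, a regulator of splicing and stability found in brain, heart and lymphocytes, was at 3.44 and 3.36 in V71 DF, 3.15 and 3.19 in V71 NDF, 4.04 and 4.41 in PLKO DF and 3.20 and 3.30 in PLKO NDF cells. Only the PLKO DF arrays stood apart, at 4.04 or more, with every other array at 3.44 or less. CELF2 rose by 0.98 ± 0.12 in PLKO cells, or 1.97-fold (limma, adjusted p = 0.000482), whereas the V71 change was 0.23 ± 0.12 (adjusted p = 0.288). In DF it was thus lower in V71 than in PLKO cells, with V71 minus PLKO at -0.83 (adjusted p = 0.00389; without moderation 0.118), and in NDF this was -0.08 (adjusted p = 0.869). The difference in response was -0.75 (95% interval -1.13 to -0.37) and was not called (adjusted p = 0.0996). All these values lie below the array medians, and those of the other 3 groups come near the lower quartile.

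CELF4, which binds mRNAs of excitatory neurons and in the mouse guards against seizures, was at 6.87 and 6.72 in V71 DF, 6.06 and 6.23 in V71 NDF, 6.79 and 6.54 in PLKO DF and 6.38 and 6.17 in PLKO NDF cells. The DF arrays lay above the NDF arrays in either line. The rise in V71 cells was 0.65 ± 0.12, or 1.57-fold (limma, adjusted p = 0.00566), and the change in PLKO cells was 0.39 ± 0.12 (adjusted p = 0.065). The V71 call was lost without V71 NDF replicate 2 (0.56, adjusted p = 0.0503), without V71 DF replicate 1 (0.57) and without moderation (adjusted p = 0.0916). The difference between the responses was 0.26 (95% interval -0.12 to 0.64).

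CELF6, a paralog enriched in brain, was the only one of the 8 analysed paralogs of these families that was called in any comparison. It was at 5.92 and 6.10 in V71 DF, 5.24 and 5.42 in V71 NDF, 5.84 and 5.79 in PLKO DF and 5.38 and 5.32 in PLKO NDF cells. It rose by 0.68 ± 0.10 in V71 cells (limma, adjusted p = 0.00155), and in PLKO cells a change of 0.46 (adjusted p = 0.0136) was short of the fold threshold. The changes of CELF1, CELF3 and CELF5 upon differentiation were between -0.13 and 0.33, none of them called. None of the 8 paralogs was called between the lines (limma), none had an unadjusted p under 0.05 there, and an analysis of variance without moderation called none either.

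PTBP1, the repressor of neuronal exons, was at 8.32 and 8.29 in V71 DF, 9.04 and 9.27 in V71 NDF, 8.04 and 7.93 in PLKO DF and 8.85 and 8.73 in PLKO NDF cells. Every DF array lay below every NDF array. PTBP1 fell by 0.85 ± 0.10 in V71 cells, or 1.80-fold (limma, adjusted p = 0.000436), and by 0.81 ± 0.10 in PLKO cells, or 1.75-fold (adjusted p = 0.000552). The difference between these responses was -0.04, with a 95% interval of -0.36 to 0.27. V71 minus PLKO was 0.32 in DF (adjusted p = 0.121) and 0.37 in NDF (adjusted p = 0.118), with the V71 arrays above the PLKO arrays in each condition but no call.

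PTBP2, its neuronal paralog, was at 8.65 and 8.82 in V71 DF, 8.85 and 8.63 in V71 NDF, 8.92 and 9.01 in PLKO DF and 8.84 and 8.86 in PLKO NDF cells. Its DF and NDF arrays overlapped in V71 cells. The change was -0.01 in V71 cells (95% interval -0.24 to 0.23) and 0.12 in PLKO cells (-0.12 to 0.35), so the fall of PTBP1 went without a detected rise of PTBP2 mRNA. PTBP3, the third paralog, changed by 0.24 in V71 cells (adjusted p = 0.141) and by 0.24 in PLKO cells (adjusted p = 0.133).

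The promoter of PTBP1 is shown because the gene fell in both lines. The first of its RefSeq windows, at chr19:797202-797501 on the plus strand (GRCh38.p14), held 2 copies of CCAAT, the letters that NF-Y binds in many genes of the dividing cell, in capitals at bases 51 and 163.
PTBP1: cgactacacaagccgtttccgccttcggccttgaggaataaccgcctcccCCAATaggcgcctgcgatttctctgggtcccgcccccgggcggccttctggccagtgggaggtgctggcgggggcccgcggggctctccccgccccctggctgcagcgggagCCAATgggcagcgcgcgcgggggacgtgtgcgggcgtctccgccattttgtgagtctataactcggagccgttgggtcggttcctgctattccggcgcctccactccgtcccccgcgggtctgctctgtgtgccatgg
CCAAT on either strand was in 14 of the 35 windows of these genes and in 34.6% of all windows. The E2F letters TTCCCGCC, on either strand, were in 3 of the 35, or 8.6%, of which 1 was the other PTBP1 window and 2 belonged to ELAVL2, and in 3.2% of all windows.

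Genes of the dividing cell moved with PTBP1. The mean of 16 proliferation markers was 6.81 to 6.89 in V71 DF, 8.12 to 8.13 in V71 NDF, 6.19 to 6.36 in PLKO DF and 7.93 to 7.96 in PLKO NDF cells. DF minus NDF called 15 of the 16 lower in V71 cells and all 16 lower in PLKO cells. Between the lines 9 of them were higher in V71 than in PLKO cells in DF, the comparison in which ELAVL2 was higher and CELF2 lower, and in NDF 1 was lower. Without moderation 2 were called in DF and none in NDF. MCM3 was lower in V71 than in PLKO cells in DF, with means of 6.99 and 7.49, and had no call there. Markers of S-type cells, the substrate-adherent form of neuroblastoma, averaged 4.83 to 4.95 in V71 DF, 4.98 to 5.07 in V71 NDF, 5.15 to 5.20 in PLKO DF and 5.55 to 5.58 in PLKO NDF cells over 20 genes. Of these, 7 were lower in V71 than in PLKO cells in NDF, the comparison in which ELAVL4 was lower, and 3 were lower in DF (4 in NDF and 1 in DF without moderation). Upon differentiation 1 was higher and 1 lower in V71 cells and 5 were lower in PLKO cells. The part of proliferation or of S-type cells in these results was not tested. Schwann cell and glial markers, 7 genes with averages of 3.62 to 3.81 on all arrays, had no call in any comparison (limma), 1 unadjusted p under 0.05 in DF between the lines and 1 in V71 upon differentiation, and no call without moderation. Of these markers CDH19 was below the lower quartile on all arrays.

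**Figure D2:**
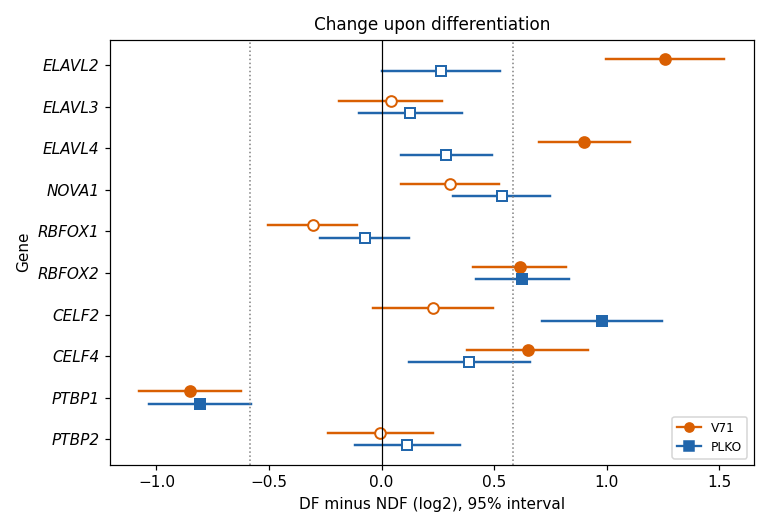
DF minus NDF on the log2 scale (horizontal axis) for the 10 genes in V71 cells (circles) and PLKO cells (squares), with 95% intervals from limma; filled symbols passed both thresholds and dotted lines mark a fold of 1.5. RBFOX2 and PTBP1 are filled in both lines, at 0.61 and 0.63 and at -0.85 and -0.81, while PTBP2 sits at 0 or close to it.

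**Figure D3:**
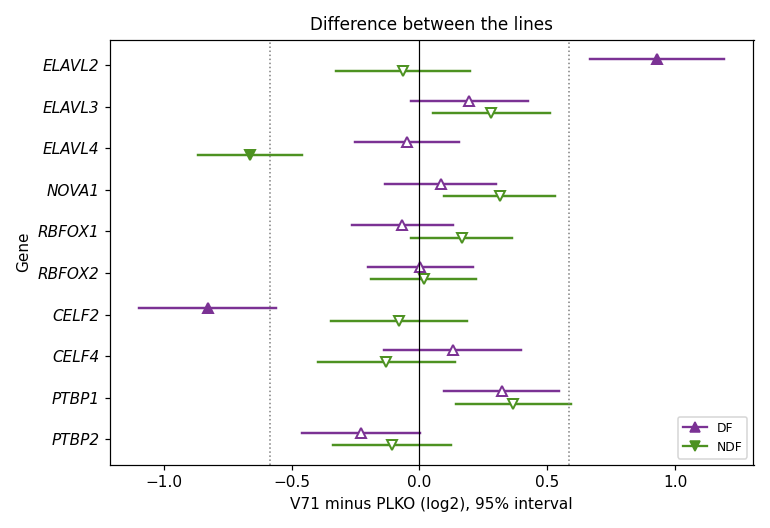
V71 minus PLKO on the log2 scale (horizontal axis) for the 10 genes in DF (triangles up) and NDF (triangles down), with 95% intervals from limma; filled symbols passed both thresholds and dotted lines mark a fold of 1.5. ELAVL2 at 0.93 and CELF2 at -0.83 are filled in DF, and ELAVL4 at -0.66 is filled in NDF.

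Other tissue-restricted splicing regulators, 18 of 19 analysed, were next compared. In DF minus NDF, 2 were lower and 1 higher in V71 cells and 4 were lower in PLKO cells, with medians of -0.05 in each line. Among all genes 3.55% were called lower and 3.98% higher in V71 cells, and 4.16% lower in PLKO cells. MBNL3, a muscleblind protein of proliferating precursors, was at 4.54 and 4.56 in V71 DF, 5.25 and 5.32 in V71 NDF, 4.20 and 3.99 in PLKO DF and 5.23 and 4.98 in PLKO NDF cells. It fell by 0.74 in V71 (limma, adjusted p = 0.00177; 0.0546 without moderation) and by 1.01 in PLKO cells (adjusted p = 0.000234). KHDRBS3, a STAR-family splicing factor also known as SLM2 or T-STAR, fell by 0.63 in V71 (adjusted p = 0.0014) and by 0.69 in PLKO cells (adjusted p = 0.000735). The V71 fold of KHDRBS3 came to less than 1.5 without V71 NDF replicate 3 or V71 DF replicate 1.

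QKI, a STAR protein of glia and progenitors, was at 6.09 and 5.94 in V71 DF, 6.11 and 6.02 in V71 NDF, 5.66 and 5.71 in PLKO DF and 6.47 and 6.43 in PLKO NDF cells. It fell by 0.77 in PLKO cells (limma, adjusted p = 0.000329), and its V71 arrays overlapped. MSI1 (Musashi), a translational repressor of neural progenitors, fell by 0.71 in PLKO cells (adjusted p = 0.00661; without PLKO NDF replicate 3, 0.0707), and its change in V71 cells was -0.39 (adjusted p = 0.0946). The difference between these MSI1 responses, 0.32, was not called (adjusted p = 0.695). RBPMS, best known as a splicing regulator of smooth muscle, was at 5.50 and 5.11 in V71 DF, 4.18 and 3.98 in V71 NDF, 4.13 and 4.24 in PLKO DF and 4.16 and 3.96 in PLKO NDF cells. The V71 DF arrays alone stood apart, as they did for ELAVL2. It rose by 1.22 upon differentiation in V71 cells (adjusted p = 0.000314), and in DF it was higher in V71 than in PLKO cells by 1.11 (adjusted p = 0.00165; without moderation 0.106). Its paralog RBPMS2 was lower in V71 than in PLKO cells in NDF, at -0.62 (adjusted p = 0.0158), a call lost on leaving out V71 NDF replicate 2 or 3 or PLKO NDF replicate 2 (adjusted p up to 0.146).

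**Figure D4:**
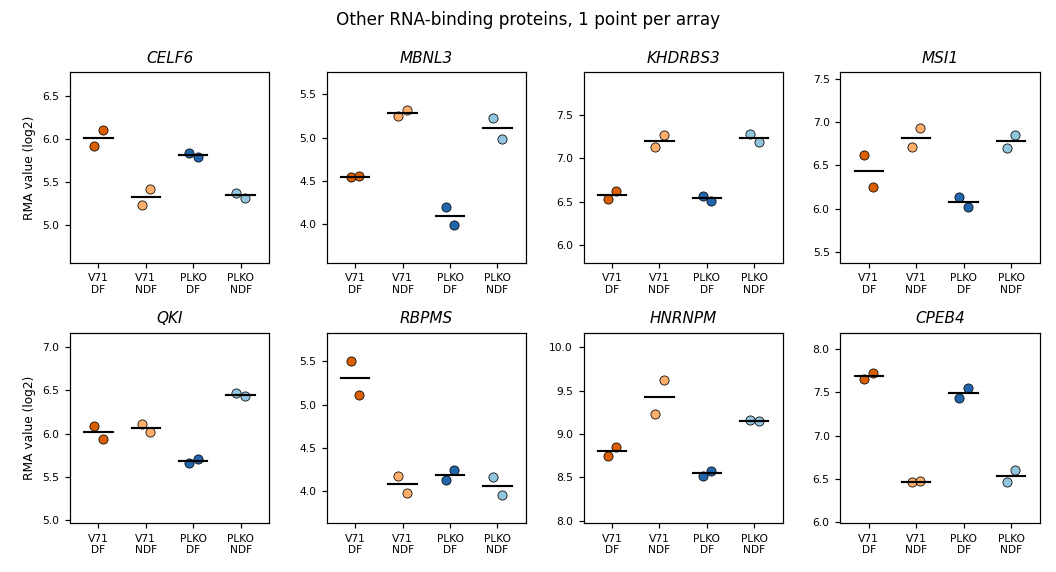
RMA values on the log2 scale (vertical axes, of equal length in log2 units) of CELF6, 5 other splicing regulators, HNRNPM and CPEB4 on the 8 arrays. Points are single arrays and bars the means of 2, with V71 DF, V71 NDF, PLKO DF and PLKO NDF set left to right, and RBPMS stands at 5.11 or more on the V71 DF arrays and at 4.24 or less on the others, while CPEB4 is at 7.44 or more on every DF array and at 6.61 or less on every NDF array.

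Of 22 hnRNP genes analysed of 26 listed, HNRNPM, which promotes or represses exons in many cell types, fell by 0.63 in V71 (limma, adjusted p = 0.00789) and by 0.61 in PLKO cells (adjusted p = 0.00915), and PCBP3 rose by 0.59 in V71 cells (adjusted p = 0.00177). The HNRNPM call was lost without V71 NDF replicate 3 or V71 DF replicate 1 in V71 cells and, in PLKO cells, without PLKO NDF replicate 2 or 3 or PLKO DF replicate 1. PCBP3 came short of the fold without V71 NDF replicate 2 or V71 DF replicate 1. The median change of the 22 was -0.23 in V71 and -0.14 in PLKO cells, and 15 of them in V71 and 9 in PLKO cells had an unadjusted p under 0.05. Of all 18377 genes, 5346 in V71 and 5152 in PLKO cells had such a p. None of the 22 was called between the lines (limma), and none without moderation. There 4 in DF and 3 in NDF had an unadjusted p under 0.05, against 3576 and 2765 of all 18377 genes. The 14 SR protein genes, whose products promote exon inclusion, had median changes of -0.31 in V71 and -0.13 in PLKO cells. None of them passed both thresholds in any comparison (limma), although 10 in V71 and 8 in PLKO cells had an unadjusted p under 0.05 upon differentiation, and none was called without moderation.

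Proteins of neuronal mRNPs and mRNA transport, 21 of 23 analysed, held 3 genes higher in V71 and 2 in PLKO cells upon differentiation, with medians of 0.01 in each. The shares of all genes called higher were 3.98% in V71 and 2.88% in PLKO cells. CPEB4, a cytoplasmic polyadenylation factor, was at 7.65 and 7.72 in V71 DF, 6.46 and 6.48 in V71 NDF, 7.44 and 7.55 in PLKO DF and 6.46 and 6.61 in PLKO NDF cells. It rose by 1.21 in V71 (limma, adjusted p = 2.46e-05) and by 0.96 in PLKO cells (adjusted p = 8.64e-05). Of its relatives, CPEB1 rose by 0.85 in V71 cells (adjusted p = 0.000937) and CPEB3 by 0.60 in PLKO cells (adjusted p = 0.00607). CPEB3 lost its call without PLKO NDF replicate 3 or PLKO DF replicate 2. ATXN1, an RNA-binding protein and co-repressor, rose by 0.91 in V71 cells (adjusted p = 0.00114) and was higher in V71 than in PLKO cells in DF by 0.61 (adjusted p = 0.0232; lost without PLKO DF replicate 2 or V71 DF replicate 1 or 2, adjusted p up to 0.119).

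Messenger RNAs described as targets of ELAVL4, 13 of 16 analysed, had 4 calls between the lines in DF and 1 in NDF, and 1 in V71 and 3 in PLKO cells upon differentiation. The shares of all genes called in these comparisons were 3.06%, 2.15%, 7.53% and 7.04%. In DF 3 of the 13 targets were higher in V71 than in PLKO cells, GAP43 by 1.61, MYCN by 0.93 and BDNF by 0.90 (limma, adjusted p = 1.59e-05, 0.000333 and 0.00169). MAPT was lower there, at -1.09 (adjusted p = 0.00107). Without moderation the BDNF and MAPT calls in DF were lost (adjusted p = 0.086 each), which left 2 of the 4. GAP43, a protein of the growth cone, was at 10.25 and 10.24 in V71 DF, 9.40 and 9.48 in V71 NDF, 8.54 and 8.74 in PLKO DF and 9.41 and 9.35 in PLKO NDF cells. It thus rose by 0.81 in V71 (adjusted p = 0.000372) and fell by 0.74 in PLKO cells (adjusted p = 0.000568) upon differentiation. ELAVL4 itself was at -0.05 between the lines in DF and had no call there, nor upon differentiation in PLKO cells (0.29). It was called lower in V71 than in PLKO cells in NDF (-0.66), as was MAPT, while the other 12 targets had no call. Upon differentiation in V71 cells it was called higher (0.90), as was GAP43, again with no call for the other 12. A part of ELAVL4 in the levels of these transcripts was not tested. MAPT, which encodes tau, was lower in V71 than in PLKO cells in NDF too, at -0.70 (adjusted p = 0.0173; lost on leaving out V71 NDF replicate 2 or PLKO NDF replicate 2 or 3, adjusted p up to 0.146). In PLKO cells MAPT rose by 0.64 (adjusted p = 0.00763; lost without PLKO NDF replicate 3 or PLKO DF replicate 1) and ACHE, acetylcholinesterase, by 0.78 (adjusted p = 0.00046). The median differences of the 13 were between -0.09 and 0.10 in the 4 comparisons.

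Genes whose transcripts carry exons known to be repressed by PTBP proteins, 16 of 20 analysed, were read at the level of the gene only, and the inclusion of their exons was not measured here. In DF minus NDF 6 were higher in V71 and 2 in PLKO cells and none was lower, with medians of 0.34 in V71 and 0.05 in PLKO cells. Over all genes 3.98% were called higher and 3.55% lower in V71 cells, and 2.88% higher and 4.16% lower in PLKO cells. GABBR1, a GABA-B receptor subunit, rose by 0.86 in V71 (limma, adjusted p = 0.000257) and by 1.42 in PLKO cells (adjusted p = 8.82e-06). CACNA1C, an L-type calcium channel, rose by 1.05 in V71 (adjusted p = 4.71e-05) and by 0.60 in PLKO cells (adjusted p = 0.00142). It was lower in V71 than in PLKO cells in NDF, at -1.05 (adjusted p = 0.000151), and in DF, at -0.61 (adjusted p = 0.00359). SNAP25, a SNARE protein of the synapse, rose by 1.18 in V71 cells (adjusted p = 2.1e-05), and in DF it was higher in V71 than in PLKO cells by 0.65 (adjusted p = 0.0023). MYL6, KIF1B and TPM2, of the cytoskeleton and its motors, rose by 0.80, 0.73 and 0.59 in V71 cells (adjusted p = 0.0162, 0.00151 and 0.00214). The MYL6 call was lost without V71 NDF replicate 3 or V71 DF replicate 1 (adjusted p up to 0.11), and the TPM2 fold came short without V71 NDF replicate 3 or V71 DF replicate 2. For CACNA1C the PLKO change came short of the fold without PLKO NDF replicate 3 or PLKO DF replicate 2, and the difference in DF without V71 DF replicate 2.

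Genes of post-mitotic neurons, 15 of 16 analysed, had 4 members higher and 1 lower in V71 and 2 higher in PLKO cells upon differentiation, with medians of 0.27 and 0.10 in those lines. The shares of all genes were 3.98% higher and 3.55% lower in V71 cells and 2.88% higher in PLKO cells. NEFM, a neurofilament subunit, rose by 1.48 in V71 (limma, adjusted p = 1.82e-05) and by 0.74 in PLKO cells (adjusted p = 0.00128). Besides SNAP25, DCX, a microtubule protein of young neurons, and NEFL rose in V71 cells by 0.74 and 0.67 (adjusted p = 0.000609 and 0.000959), and NSG2, of endosomes, fell by 0.70 (adjusted p = 0.00175). SCG2, a granin of secretory vesicles, rose in PLKO cells by 1.26 (adjusted p = 3.12e-05). DCX was higher in V71 than in PLKO cells by 1.98 in DF (adjusted p = 5.56e-06) and by 0.67 in NDF (adjusted p = 0.00387; without PLKO NDF replicate 3, 0.0586). SCG2 was higher in V71 than in PLKO cells in NDF, by 0.88 (adjusted p = 0.00135).

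For each of the 6 genes called in any comparison, the 3 genes with the most similar profile over the 8 arrays were looked up among 1417 that ranged over at least 1 log2 unit. The correlations are given as descriptions, since the 8 values fall into 4 groups. ELAVL2 ran with GLP1R (Pearson r = 0.986), the GLP-1 receptor, PPP1R13B (0.985), a p53-binding ASPP protein, and HEY1 (0.984), a target of Notch. ELAVL4 ran with TFB1M (0.989), which methylates mitochondrial ribosomal RNA, DUSP4 (0.987), a MAP kinase phosphatase, and KIF5C (0.986), a neuronal kinesin. RBFOX2 ran with MGAT5 (0.995), a Golgi glycosyltransferase, RAPGEF2 (0.993), an activator of Rap, and PLCD4 (0.99), a phospholipase. CELF2 ran with FAM43A (0.984), TRIM54 (0.983) and the protocadherin PCDHB11 (0.981). CELF4 was followed less closely, by the scaffold HOMER2 (0.968), NQO2 (0.961) and the potassium channel KCNQ1 (0.953). PTBP1 ran with PLXDC2 (0.995), the replicative helicase subunit MCM2 (0.99) and PAX5 (0.989).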

How the data were processed

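RNA of 4 groups with 2 biological replicates each was hybridised to 8 Human Gene 1.0 ST arrays of Affymetrix. By the methods and the submitters' processing notes, the authors ran RMA in Partek 6.5, and the deposited log2 values come from it and were used as deposited. Depth does not apply to arrays, and the 2 arrays per group limit the precision. The table has 28869 rows, of which 19310 carry exactly 1 gene symbol. For the 685 genes with more than 1 such row, the row with the highest mean was kept, which left 18377 genes. The target of the shRNA and some other genes are not analysed here.

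Groups follow the title codes V71 or PLKO and DF or NDF. A model with 4 group means was fitted to all rows in limma 3.58.1 (R 4.3.3) with eBayes moderation (4 residual and 5.43 prior degrees of freedom, median residual SD 0.0996), and p was adjusted by Benjamini-Hochberg over all 28869 rows. A call needed a fold of at least 1.5 and an adjusted p under 0.05, the thresholds of the methods. Compared were V71 with PLKO in DF and in NDF, DF with NDF in both lines, and the responses of the lines with each other (interaction). The fit was also run on data simulated as independent normal noise, with changes planted in V71 DF alone. As these data follow the model's own assumptions, they do not test the calls made here.

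The 10 genes and the 12 gene lists were chosen with earlier results of these data known. Named were all 10 genes and their paralogs, the 5 largest changes among the called genes of each other list per comparison, and for each called gene the 3 most correlated of those with a range of at least 1 log2 unit. Promoter windows came from RefSeq (GRCh38.p14), matched by symbol; ELAVL3 and RBFOX2 had no window in the table used. The genome build behind the array annotation is not given in the sources used here, and no coordinates were taken from it. Alternatives were no moderation, a trended and robust prior, 3 further normalizations, array weights, other fold thresholds, a replicate block, a fit on the 4 arrays compared alone, dim rows (below the 33rd percentile) dropped, p adjusted over rows with 1 symbol, and the omission of each array in turn.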

Additional observations from a re-analysis of the deposited data

Results flagged for a closer look

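Differences between the lines in response were looked up among the 10 genes and the 8 gene lists other than the cell markers. The genes of similar profile were not searched. The interaction term in limma with Benjamini-Hochberg adjustment called 8 genes, against 1.39% of all genes (1.09% with a positive and 0.305% with a negative difference). They were 1 of the 10, 2 of 18 tissue-restricted regulators, 2 of 13 ELAVL4 targets, 1 of 16 genes with PTBP-repressed exons and 3 of 15 neuron genes. SNAP25 is in the last 2 of these lists. None of the 8 paralogs, 22 hnRNP genes, 14 SR protein genes and 21 genes of neuronal mRNPs was called. ELAVL2 had a difference in response of 1.0 (adjusted p = 0.0241), with DF minus NDF at 1.26 in V71 and 0.26 in PLKO cells. For RBPMS the difference was 1.09 (adjusted p = 0.0343), with changes of 1.22 in V71 and 0.13 in PLKO cells. For QKI it was 0.72 (adjusted p = 0.0293), with changes of -0.04 in V71 and -0.77 in PLKO cells. GAP43 had a difference of 1.55 (adjusted p = 0.000458) and changed in opposite directions, at 0.81 in V71 and -0.74 in PLKO cells. For MYCN it was 0.65 (adjusted p = 0.0498), with changes of 0.52 in V71 and -0.13 in PLKO cells. SNAP25 had a difference of 1.08 (adjusted p = 0.00277), with changes of 1.18 in V71 and 0.10 in PLKO cells. For DCX it was 1.31 (adjusted p = 0.00137), with changes of 0.74 in V71 and -0.58 in PLKO cells. SCG2 had a difference of -0.89 (adjusted p = 0.0198), with changes of 0.37 in V71 and 1.26 in PLKO cells. No explanation was tested. Leaving out single arrays took the adjusted p of ELAVL2 to 0.136, of QKI to 0.157, of RBPMS to 0.171, of MYCN to 0.22 and of SCG2 to 0.113, whereas GAP43, SNAP25 and DCX stayed called without any 1 array. With the replicate block QKI (adjusted p = 0.0768) and MYCN (0.099) were not called, and with the crossed block QKI (0.0639), MYCN (0.0696), RBPMS (0.0731) and SCG2 (0.0517) were not. Without moderation none of the 8 was called, the lowest adjusted p being that of GAP43, 0.0907.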

How the results depend on the processing

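Over the 10 genes, 5 comparisons and all alternatives, 1000 values stayed called or stayed uncalled, 28 lost the call and 7 gained it. A call went with a reversed direction in 0 values. Changes of sign among values without a call were not counted. Without moderation the calls among the 10 numbered 0 in V71 minus PLKO in DF, 0 in NDF and 0 in the interaction (2, 1 and 1 as reported). Among the other named genes this also took away the calls of RBPMS, ATXN1, MAPT, BDNF and CACNA1C in DF, of RBPMS2, MAPT, DCX and SCG2 in NDF, of MBNL3, HNRNPM, ATXN1 and MYL6 in V71 cells and of MSI1, HNRNPM, CPEB3 and MAPT in PLKO cells upon differentiation, and all in the interaction. With a fold of at least 2 the calls among the 10 numbered 0 in DF, 0 in NDF, 1 in V71 cells upon differentiation (ELAVL2), 0 in PLKO cells and 0 in the interaction. With a trended and robust prior the interaction called 2, ELAVL4 added. Leaving out each array in turn gave 2 to 2 calls in DF, 0 to 1 in NDF, 3 to 5 in V71 cells, 2 to 4 in PLKO cells and 0 to 1 in the interaction. The other normalizations, array weights, the filter on dim rows and the fit on 4 arrays left these counts within 1.5 times. Among the other named genes some calls were lost. Quantile normalization took away HNRNPM in PLKO cells, PCBP3 and TPM2 in V71 cells and MYCN in the interaction. Cyclic loess took away TPM2 in V71 cells and CPEB3 and CACNA1C in PLKO cells. The fit on 4 arrays took away ATXN1 in DF and RBPMS2 and MAPT in NDF. Replicate numbers are shared by the lines within DF and within NDF, where same-numbered deviations correlated at 0.188 and -0.176, so the numbers were not read as pairs. The replicate block left 2 calls in DF, 1 in NDF and 1 in the interaction, and the crossed block in NDF, added after the data were seen, left 1 in NDF and 1 in the interaction. Among the other named genes the block also took away the call of ATXN1 in DF (adjusted p = 0.0521) and those of QKI and MYCN in the interaction. No paired analysis was possible for DF minus NDF because these share only 1 number. The mean of several rows was not run, since each of the 10 genes has 1 row. The 2 arrays per group and values near background (RBFOX1, CELF2) limit what can be seen. Among the other named genes, BDNF (3.22 to 4.29) and ATXN1 (3.30 to 4.61) had similarly low values.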
